A study of Mus musculus with 2 samples.

Results

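The proteasome is the protease that removes ubiquitin-tagged proteins from the cell, and its genes were taken here as a group: every gene whose symbol begins with Psma to Psmg followed by a digit, other than Psmb8 and Psmb9. This gave 48 of the 32285 genes in the files, and both libraries list all 48. Live cells were sorted from MC38 tumors, grown from a mouse colon cancer line implanted under the skin of female C57BL/6 mice of 6 to 8 weeks, and went through 10x Genomics single-cell RNA sequencing, with 1 library for wild-type hosts (Lmo7+/+) and 1 for hosts with a global knockout of Lmo7 (Lmo7-/-). Only the host carries the deletion and the implanted cancer cells do not, the number of mice behind a library is not given in the sources used here, and neither label names a drug treatment. With 1 library per genotype there is no replicate and no test between them, so every value below describes these 2 libraries, and each interval covers counting error only.

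The proteasome has a hollow core particle of alpha and beta rings, whose inner beta subunits cut proteins, and a regulatory cap that recognises ubiquitin chains, unfolds the substrate with a ring of ATPases and feeds it into the core. Other activators can take the place of the cap. PA28alpha/beta, made of Psme1 and Psme2, is induced by interferon gamma and is known for its part in making peptides for MHC class I, PA28gamma (Psme3) works in the nucleus, and PA200 is encoded by Psme4. In immune cells and under interferon, the catalytic subunits Psmb5, Psmb6 and Psmb7 are replaced in new particles by the immunosubunits Psmb8, Psmb9 and Psmb10. In tumors, cancer cells with many misfolded proteins depend on the proteasome, and antigen-presenting cells use it to supply peptides.

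By their known roles the 48 genes were 14 standard core genes (7 of the alpha ring and 7 of the beta ring, 3 of them catalytic), 17 cap genes, 7 assembly chaperones (4 of the core and 3 of the cap), Psme1 and Psme2, the other activators Psme3 and Psme4, the inhibitor Psmf1, the immunosubunit Psmb10, the tissue-restricted Psma8 and Psmb11, and 2 symbols that match without being established proteasome parts. Those 2 were Psmc3ip, which encodes the meiotic recombination factor HOP2, and Psme2b, a copy of Psme2. The name constitutive therefore did not cover all members, since Psmb10, Psme1 and Psme2 are known to be inducible. In the kept cells 47 of the 48 reached 100 counts, and Psmb11 did not. All 48 have a position in GENCODE M21 on GRCm38, and 22 overlap another annotated gene, 17 of them one on the other strand. The sources used here do not say whether counting used strand. Psme2b overlaps protein-coding genes on its own strand and resembles Psme2, so its counts are uncertain.

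Promoters of 4 members are printed because the results turn on them: Psme1 and Psme2, which form PA28alpha/beta and lie close together on chromosome 14, Psma7, the core gene with the highest ratio of tumor-profile to macrophage-like cells in both libraries, and Psmb6, a catalytic subunit that went against the other core genes in one macrophage cluster. Each has 300 bases, from 250 before the RefSeq start to 50 after it on GRCm38.p6, in the direction of the gene. Capitals mark a match, on either strand, to the antioxidant response element core TGACNNNGC, the CCAAT box, the interferon gamma activated sequence TTCNNNGAA or the interferon-stimulated element, here GAAA followed by any 2 bases and GAAA. The windows were chr14:55578244-55578543 (plus strand) for Psme1, chr14:55591052-55591351 (minus strand) for Psme2, where the first of 2 listed starts was used, chr2:180042415-180042714 (minus strand) for Psma7 and chr11:70525107-70525406 (plus strand) for Psmb6.
Psme1: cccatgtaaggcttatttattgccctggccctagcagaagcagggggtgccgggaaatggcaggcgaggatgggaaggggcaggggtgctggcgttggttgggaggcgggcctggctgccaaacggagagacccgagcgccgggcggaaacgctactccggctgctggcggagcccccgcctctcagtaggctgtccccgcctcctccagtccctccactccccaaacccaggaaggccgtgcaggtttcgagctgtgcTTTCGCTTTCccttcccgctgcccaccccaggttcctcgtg
Psme2: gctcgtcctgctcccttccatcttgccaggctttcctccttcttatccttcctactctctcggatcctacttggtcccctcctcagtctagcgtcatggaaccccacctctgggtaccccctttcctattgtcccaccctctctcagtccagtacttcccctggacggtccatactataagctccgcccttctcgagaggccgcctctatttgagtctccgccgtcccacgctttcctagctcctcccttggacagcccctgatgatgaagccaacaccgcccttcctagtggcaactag
Psma7: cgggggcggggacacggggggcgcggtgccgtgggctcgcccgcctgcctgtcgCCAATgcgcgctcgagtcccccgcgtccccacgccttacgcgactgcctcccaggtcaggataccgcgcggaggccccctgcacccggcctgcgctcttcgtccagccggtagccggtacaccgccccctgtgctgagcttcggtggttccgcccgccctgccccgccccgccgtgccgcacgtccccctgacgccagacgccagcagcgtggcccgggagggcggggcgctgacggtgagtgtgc
Psmb6: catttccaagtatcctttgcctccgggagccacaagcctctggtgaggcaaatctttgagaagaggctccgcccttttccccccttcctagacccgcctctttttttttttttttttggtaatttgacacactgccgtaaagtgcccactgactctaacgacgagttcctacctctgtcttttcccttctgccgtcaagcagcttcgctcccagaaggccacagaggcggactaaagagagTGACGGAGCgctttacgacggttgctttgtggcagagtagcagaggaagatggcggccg
Psme1 held an interferon-stimulated element 9 bases after its start, Psmb6 an antioxidant response element core 9 bases before it, Psma7 a CCAAT box 196 bases before it, and Psme2 none of the 4 motifs in its window. Over the 40 members with a promoter in the RefSeq table, 5 (12.5%) held the interferon-stimulated element, against 3.49% of all 27025 promoters of this length. They were Psmd4, Psmd9, Psmb3, Psmg4 and Psme1. Psmb10, whose window is not printed, held none of the 4 motifs. TGACNNNGC was in 6 member promoters (15%, against 12.5% of all), CCAAT in 14 (35.0%, against 37.9%) and TTCNNNGAA in 2 (5.0%, against 8.47%). These matches describe letters in a window and were not tested as binding sites.

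The deposited counts held 98582479 UMIs in 16208 droplets of the Lmo7+/+ library and 80648345 UMIs in 15163 droplets of the Lmo7-/- library, where a UMI marks 1 captured RNA molecule. After filtering 13542 and 11860 cells were kept, and 175 kept barcodes occurred in both libraries. Clusters were built without the proteasome genes and named from marker genes. Macrophage-like, monocyte-like, dendritic-like, T-like, NK-like, fibroblast-like and endothelial-like cells and the tumor-profile cells had at least 50 cells in each library. Tumor-profile cells (7128 and 5254) were chosen by expression along the chromosomes. The profile used was that of their largest cluster, which therefore matched by construction, and the others were chosen by likeness to it. The summed tumor markers were at 214 and 187 CPM in tumor-profile cells and at 39.1 and 34.7 CPM in macrophage-like cells. They were higher in dendritic-like (318 and 224 CPM) and fibroblast-like cells (1696 and 247 CPM). Tumor-profile cells are not called by a cell type, because their largest cluster had 6 of 18 tumor markers at 5 CPM or more and none among its 10 leading genes. Macrophage-like cells (3280 and 3854) had 12 of 12 markers at this level in each of their 3 clusters, of which clusters 7 and 15 had none among their 10 leading genes. Lmo7 itself had 38 counts in the named host classes from wild-type mice and 31 in the same classes labelled Lmo7-/-, a log2 ratio of -0.25 (-0.98 to 0.47), so lower Lmo7 in the host cells was not detectable at this depth, and the second library is called the library labelled Lmo7-/-. In tumor-profile cells Lmo7 was at 19.7 and 15.9 CPM, a log2 ratio of -0.31 (-0.44 to -0.17).

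Levels are summed UMI counts of a class scaled to 1000000 UMIs (CPM), not by gene length. The core and cap genes were most abundant in tumor-profile cells. The 14 core genes together held 3689 CPM (95% counting interval 3674 to 3704) in tumor-profile cells of the Lmo7+/+ library and 3798 CPM (3780 to 3817) in those of the library labelled Lmo7-/-. The core was at 2851 and 2848 CPM in T-like cells, 2809 and 2979 CPM in monocyte-like cells, 2642 and 2578 CPM in macrophage-like cells, and 2625 and 2866 CPM in dendritic-like cells. The lowest levels were 2049 and 2029 CPM in fibroblast-like cells. The intervals of T-like and monocyte-like cells overlapped in the Lmo7+/+ library (2757 to 2946 against 2766 to 2852 CPM), as did those of macrophage-like and dendritic-like cells (2618 to 2666 against 2539 to 2713 CPM), so these neighbours could not be ordered there. The 17 cap genes held 3139 and 3117 CPM in tumor-profile cells and between 1609 and 2127 CPM in every other class and library.

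**Figure D1:**
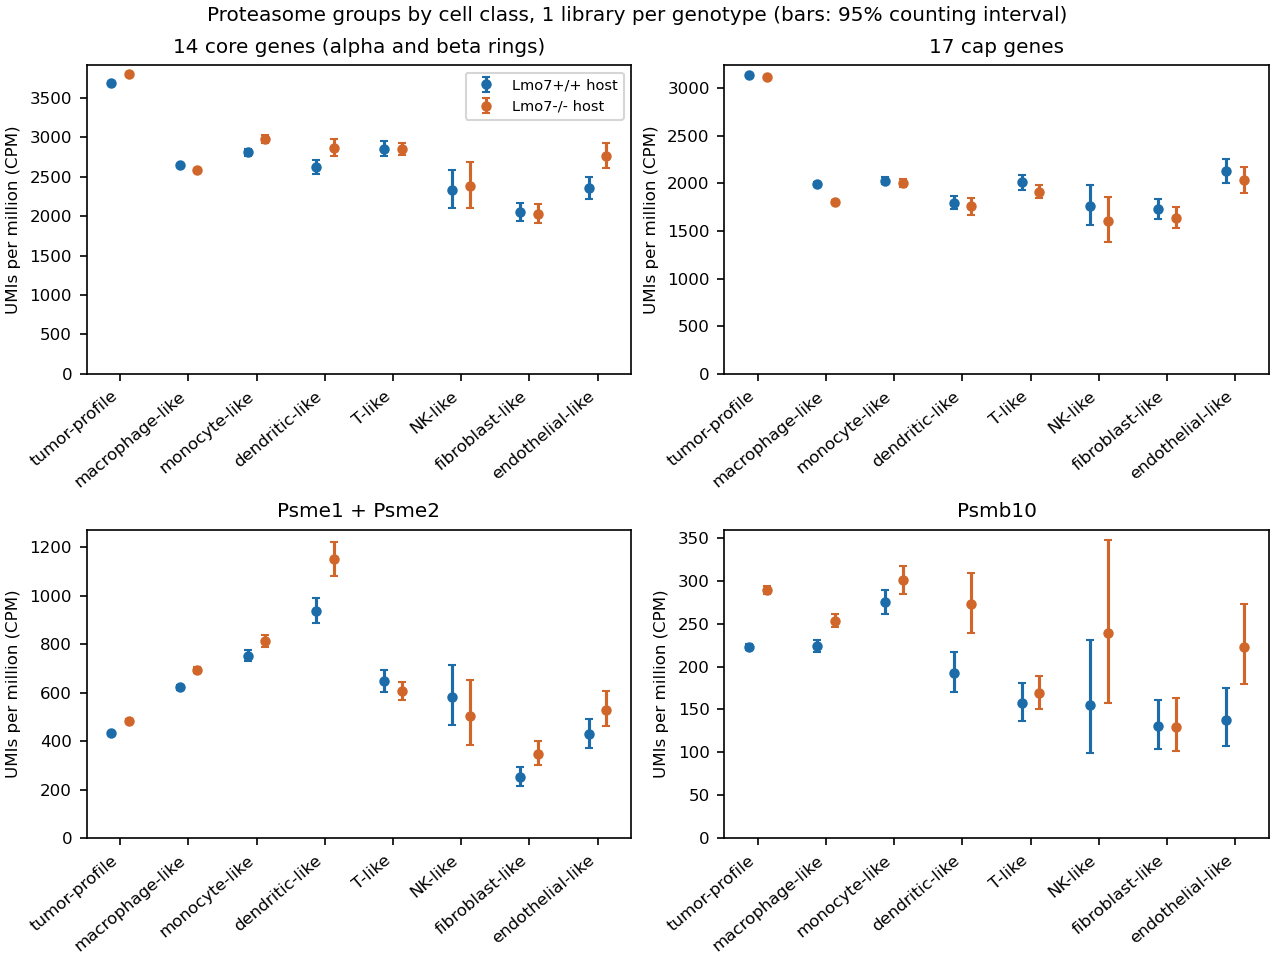
Summed level of the core, the cap, Psme1 with Psme2, and Psmb10 (vertical axis, CPM) in 8 cell classes (horizontal axis), 1 point per library with its 95% counting interval. Core and cap points are highest in tumor-profile cells, whereas Psme1 with Psme2 are highest in dendritic-like cells of both libraries.

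Psme1 and Psme2 followed another order. Their summed level was 937 CPM (886 to 990) and 1150 CPM (1081 to 1222) in dendritic-like cells, 752 and 812 CPM in monocyte-like cells, 621 and 693 CPM in macrophage-like cells, and 431 and 484 CPM in tumor-profile cells, for the Lmo7+/+ library and the library labelled Lmo7-/- in turn. Fibroblast-like cells had the lowest levels, 251 and 347 CPM. Dendritic-like cells stood above every other class in both libraries without overlap of the intervals. Of the 47 members with at least 100 counts, 37 were highest in the same class in both libraries. Tumor-profile cells held 29 of these (9 core and 14 cap genes among them). The share of all genes that were highest there is not given here. For all genes, the median log2 ratio of tumor-profile over macrophage-like cells was itself 0.46 and 0.59. Psme1, Psme2 and the lid subunit Psmd13 were highest in dendritic-like cells, Psma1 and Psmb10 in monocyte-like cells, Psma2 in T-like cells, and the ATPase Psmc4 with the core chaperone Psmg1 in endothelial-like cells. Psmg1 was at 32.4 and 41.1 CPM there, where all 4 core chaperones together had 47 and 45 counts. No intervals are given for these ranks, so a rank that rests on few counts is not resolved. Psmd13 ranged from 46.9 to 91.1 CPM over all classes and libraries.

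Among the catalytic subunits, Psmb7 (trypsin-like site) was at 210 and 206 CPM in tumor-profile cells against 127 and 116 CPM in macrophage-like cells. Psmb6 (caspase-like site) was at 236 and 239 CPM against 195 and 193 CPM. Psmb5 (chymotrypsin-like site) was at 154 and 138 CPM against 107 and 89.3 CPM. All 3 were therefore highest in the tumor-profile cells, with Psmb6 showing the smallest gap. Among the activators outside PA28alpha/beta, Psme3 was at 259 and 265 CPM in tumor-profile cells and at 141 and 112 CPM in macrophage-like cells, and Psme4 at 150 and 143 CPM against 67.9 and 57.5 CPM. The inhibitor Psmf1 was at 54.0 and 54.9 CPM against 34.0 and 35.4 CPM.

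The tissue-restricted genes were near 0. Psmb11, the beta subunit of the cortical thymus, had a single count, 1, among the macrophage-like cells of the wild-type hosts, and 0 in every other class and library. Psma8, an alpha subunit known from the testis, had 0 counts in tumor-profile cells of both libraries, which allows up to 0.0484 and 0.0670 CPM. It had 51 and 34 counts in macrophage-like cells (2.86 CPM, 2.13 to 3.76, and 1.84 CPM, 1.28 to 2.58) and 13 and 11 counts in monocyte-like cells (2.24 and 2.40 CPM). Its counts thus lay mainly in the myeloid classes.

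Tumor-profile cells were next set against macrophage-like cells in each library, with genes counted when their ratio reached 1.5-fold in the same direction in both. Of 46 members with at least 100 counts, 26 (56.5%) were higher, against 43.8% of all 12745 genes, and 1 was lower, against 19.5%. With TMM scaling 10 members in place of these 27 passed the limit, and the share of all genes with TMM is not given here. The share of members was above that of all genes on the higher side and below it on the lower side. The median of all genes itself was shifted by 0.46 and 0.59 on the log2 scale. The median of the members was 0.65 and 0.71. Relative to the median of all genes the core sum differed by 0.02 and -0.03, the cap sum by 0.19 and 0.21, and Psme1 with Psme2 by -0.99 and -1.10. Core abundance in tumor-profile cells was thus matched by the typical gene, the cap lay slightly above it, and PA28alpha/beta lay below it.

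The highest ratio in both libraries belonged to Psmc3ip, the recombination factor, which was 3.51-fold (log2 1.81, 1.58 to 2.05) and 4.68-fold (log2 2.23, 1.98 to 2.48) higher. The cap chaperone Psmd5 was 2.34-fold and 2.69-fold higher. The core chaperone Psmg3 was 1.94-fold higher in the Lmo7+/+ library, below Psme4 (2.21-fold), Psmd3 (2.16-fold) and Psma7 (2.15-fold), and 2.94-fold higher in the other library, above them (2.48-fold, 2.54-fold and 2.22-fold). In CPM, Psma7 was at 362 and 369 in tumor-profile cells and at 168 and 166 in macrophage-like cells. The lowest ratio belonged to Psme1, at 248 and 267 CPM in tumor-profile cells against 419 and 457 CPM in macrophage-like cells, a log2 ratio of -0.76 (-0.80 to -0.72) and -0.77 (-0.82 to -0.73). Psme2b (-0.37 and -0.40) was the next. Its parent Psme2 differed less than Psme1, with 183 and 217 CPM against 203 and 236 CPM (log2 -0.14 and -0.12). Psma1 (-0.21 and -0.04) was the core gene with the lowest ratio in both libraries. The cell cycle list of 16 genes moved with these differences: it was at 2373 and 2550 CPM in tumor-profile cells and at 1920 and 1458 CPM in macrophage-like cells, and its part in the result was not tested.

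**Figure D2:**
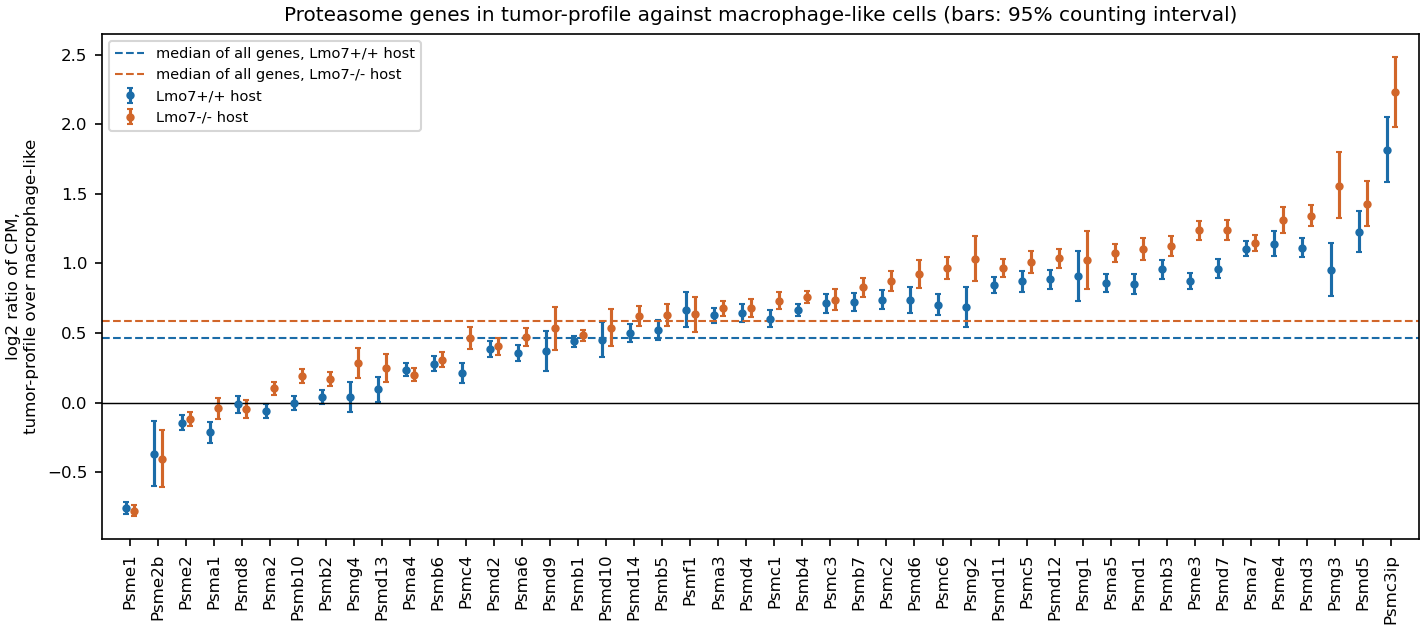
Log2 ratio of CPM in tumor-profile over macrophage-like cells (vertical axis) for each of 46 members (horizontal axis), 1 point per library with its 95% counting interval, and dashed lines at the median of all genes. Psmc3ip lies highest and Psme1 lowest in both libraries, and many core genes lie near the dashed lines.

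Other host classes differed less from macrophage-like cells. Monocyte-like cells had 0 of 47 members past 1.5-fold in both libraries in either direction (all genes: 3.53% higher and 6.45% lower). Dendritic-like cells had 1 higher member (all genes: 9.39%), Psme1, at 1.63-fold (1.52 to 1.75) and 1.72-fold (1.59 to 1.86), and 1 lower member (all genes: 16.6%), Psmc3ip, which rests on 7 and 4 counts. T-like cells had 1 higher member (all genes: 22.8%), the structural beta subunit Psmb3, at 1.55-fold and 1.57-fold, and 0 lower (all genes: 21.6%). Fibroblast-like cells had 0 higher members (all genes: 16.8%) and 8 lower ones (all genes: 26.6%), namely Psma1, Psma2, Psma6, Psmb6, Psmb10, Psmd10, Psme1 and Psme2. NK-like cells had 0 higher (all genes: 16.3%) and 3 lower members (all genes: 19.6%), and endothelial-like cells 2 higher (all genes: 19.7%) and 1 lower (all genes: 18.9%).

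Shares among proteasome counts do not depend on library scaling. Psme1 and Psme2 made up 10.5% (95% exact binomial interval 10.4 to 10.6) of the PA28alpha/beta and core counts in tumor-profile cells of the Lmo7+/+ library and 11.3% (11.2 to 11.4) in the library labelled Lmo7-/-. In macrophage-like cells this share was 19.04% (18.7 to 19.4) and 21.2% (20.8 to 21.5), in monocyte-like cells 21.1% and 21.4%, and in dendritic-like cells 26.3% (25.1 to 27.6) and 28.6% (27.2 to 30.1). Fibroblast-like cells were close to tumor-profile cells in the Lmo7+/+ library, with 10.9% (9.36 to 12.6), and above them in the other, with 14.6% (12.7 to 16.6). Psmb10, which takes the place of Psmb7, made up 51.5% and 58.4% of the counts of both genes in tumor-profile cells, 63.8% and 68.6% in macrophage-like cells, and 67.9% and 68.4% in monocyte-like cells. Of the immunosubunits outside the gene set, Psmb8 made up 80.1% and 85.3% of its counts with Psmb5 in tumor-profile cells and 85.6% and 88.9% in macrophage-like cells, and Psmb9 made up 40.2% and 51.2% of its counts with Psmb6 against 53.2% and 59.0%.

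**Figure D3:**
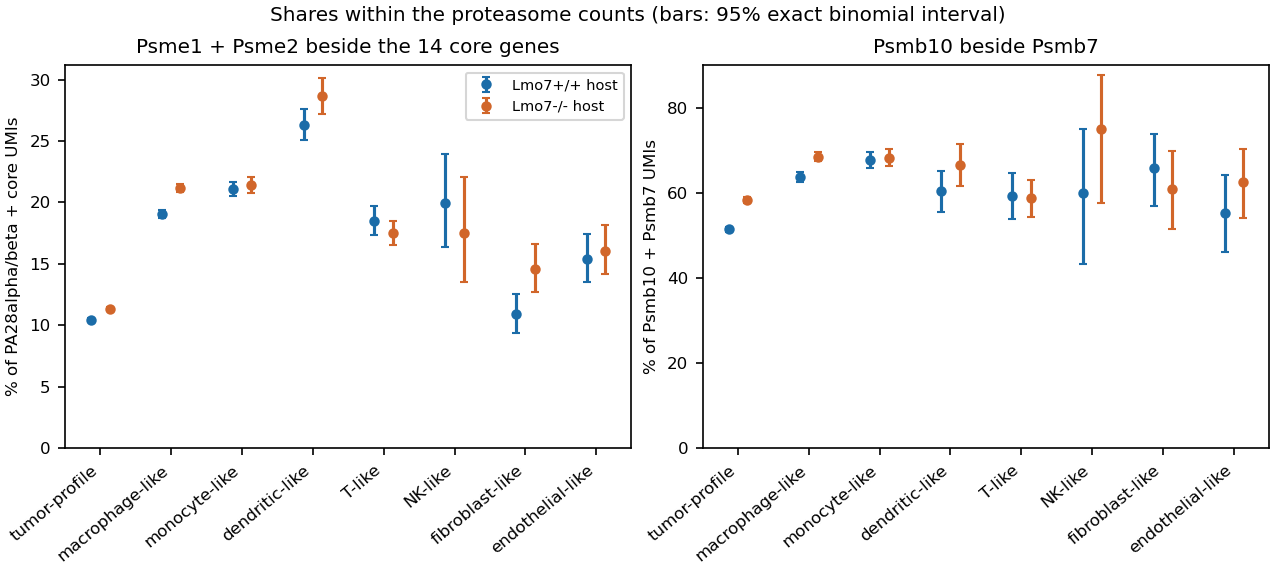
Left, Psme1 and Psme2 as a percent of PA28alpha/beta and core counts, and right, Psmb10 as a percent of Psmb10 and Psmb7 counts, by cell class (horizontal axis) and library, with 95% exact binomial intervals. The PA28alpha/beta share is highest in dendritic-like cells (26.3% and 28.6%).

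For Psmb10 in CPM, the order of tumor-profile cells and immune cells differed by immune class and library. In the Lmo7+/+ library it was at 223 CPM (219 to 227) in tumor-profile cells and at 224 CPM (217 to 231) in macrophage-like cells. In the library labelled Lmo7-/- it was at 289 CPM (284 to 294) and 253 CPM (246 to 261). T-like cells, with 158 CPM (136 to 181) and 169 CPM (150 to 189), lay below tumor-profile cells in both libraries without overlap of the intervals. Monocyte-like cells had the highest levels, 275 and 301 CPM, and in the second library their interval (285 to 317 CPM) overlapped those of tumor-profile, dendritic-like and NK-like cells.

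Within the tumor-profile cells the proteasome genes were lower in cluster 4, led by the hypoxia genes Car9, P4ha2 and Ero1l, than in the largest cluster (cluster 1). The clusters described in this paragraph and below were singled out after their values were seen. The core was at 2945 CPM against 3949 CPM in the Lmo7+/+ library (log2 -0.42, -0.44 to -0.41) and at 2870 CPM against 4176 CPM in the library labelled Lmo7-/- (log2 -0.54, -0.56 to -0.52). Of 46 members 43 were below 0 in both libraries, with a median of -0.43 and -0.57, while the median of all genes was 0.05 and 0.04. Past 1.5-fold in both libraries 6 members were lower (all genes: 10.9%) and 0 higher (all genes: 13.1%). The 6 were Psmc3ip, Psmb10, Psma1, Psmb3, Psmc5 and Psmd12. Psmb10 was at 142 CPM against 242 CPM and at 157 CPM against 321 CPM, whereas Psme1 was at 229 CPM against 251 CPM and at 225 CPM against 285 CPM. Psmd8, Psme4 and Psme2b were the members that were not lower in both libraries. The cell cycle list was at 606 and 579 CPM in cluster 4 and at 2929 and 3167 CPM in cluster 1, and its part in the result was not tested.

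The remaining tumor-profile clusters were set against cluster 1 as well. Cluster 5, with a median mitochondrial share of 0.30% and 0.20%, held 4072 and 4120 CPM of the core, close to cluster 1, with Psme4 past 1.5-fold higher (log2 0.59 and 0.62, all genes: 10.3%) and the core chaperone Psmg2 lower (log2 -1.05 and -0.89, all genes: 12.2%). The median of all genes in cluster 5 over cluster 1 was 0.22 and 0.25. Cluster 6, led by Enpp2, Serpine2 and collagen genes, held 3389 and 3365 CPM of the core, with Psmc3ip lower (all genes: 5.1%) and 0 members higher (all genes: 12.7%). Cluster 10, whose cells had a median of 2273 and 2320 UMIs, held 2015 and 2074 CPM, with 26 of 46 members lower past 1.5-fold in both libraries (all genes: 10.8%) and 0 higher (all genes: 24.9%). There the median of the members was -0.75 and -0.82, and that of all genes 0.26 and 0.22. The cap level of cluster 10, 2413 and 2538 CPM, was above its core level, unlike in cluster 1 (3373 and 3422 CPM against 3949 and 4176 CPM). The leading genes of cluster 10 were Kcnq1ot1, Ddr2 and Hspg2, with Malat1 also among the first 10. Its median mitochondrial share was 8.86% and 10.6%. The part of these traits and of its few UMIs per cell in the result was not tested. Across 19 clusters with at least 50 cells in each library, the log2 levels of core and cap had a Pearson r of 0.75 and 0.79 (Spearman rho 0.65 and 0.74). Those of core and PA28alpha/beta had an r of 0.29 and 0.23 (rho 0.32 and 0.33). Without cluster 5, r was 0.67 and 0.73 (rho 0.59 and 0.70) for core and cap, and 0.35 and 0.32 (rho 0.37 and 0.41) for core and PA28alpha/beta. The 19 include clusters 8 and 12, which were left unnamed because they had markers of 2 lineages. These are descriptions, since the clusters of a library share that library and differ in depth.

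Among macrophage-like cells, cluster 7, led by Mmp12, the heat shock genes Hspa1a and Hspa1b, and Arg1, had less of most members than the main cluster 2. This cluster too was singled out after its values were seen. The core was at 2081 CPM against 2682 CPM and at 2042 CPM against 2629 CPM (log2 -0.37 and -0.36), Psmb10 at 94.7 CPM against 233 CPM and at 120 CPM against 265 CPM, and Psme1 at 279 CPM against 431 CPM and at 312 CPM against 475 CPM. The median of the members was -0.46 and -0.38, and that of all genes was itself below 0, at -0.15 and -0.15. Past 1.5-fold, 8 members were lower in both libraries (all genes: 14.1%) and 1 higher (all genes: 6.41%). The higher one was Psmd8, a lid subunit, at 330 CPM against 144 CPM (2.29-fold) and at 329 CPM against 136 CPM (2.41-fold), log2 1.20 (1.03 to 1.36) and 1.27 (1.13 to 1.41). Psmb6 was also higher, at 245 CPM against 191 CPM and at 225 CPM against 191 CPM (log2 0.36 and 0.24), while Psmb5 and Psmb7 were not. Psmb5 was at 73.5 CPM and 66.7 CPM against 109 CPM and 91.0 CPM, and Psmb7 at 87.3 CPM and 97.8 CPM against 129 CPM and 118 CPM. The list of 7 stress genes was at 9772 and 5861 CPM in cluster 7 and at 3136 and 2384 CPM in cluster 2, and its part in the result was not tested. Cluster 15, the smallest macrophage-like cluster, led by Retnla and Ccl6, was closer to cluster 2, with a core level of 2572 and 2517 CPM, 1 lower member, Psmg1 (all genes: 9.15%), and 0 higher (all genes: 6.48%).

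**Figure D4:**
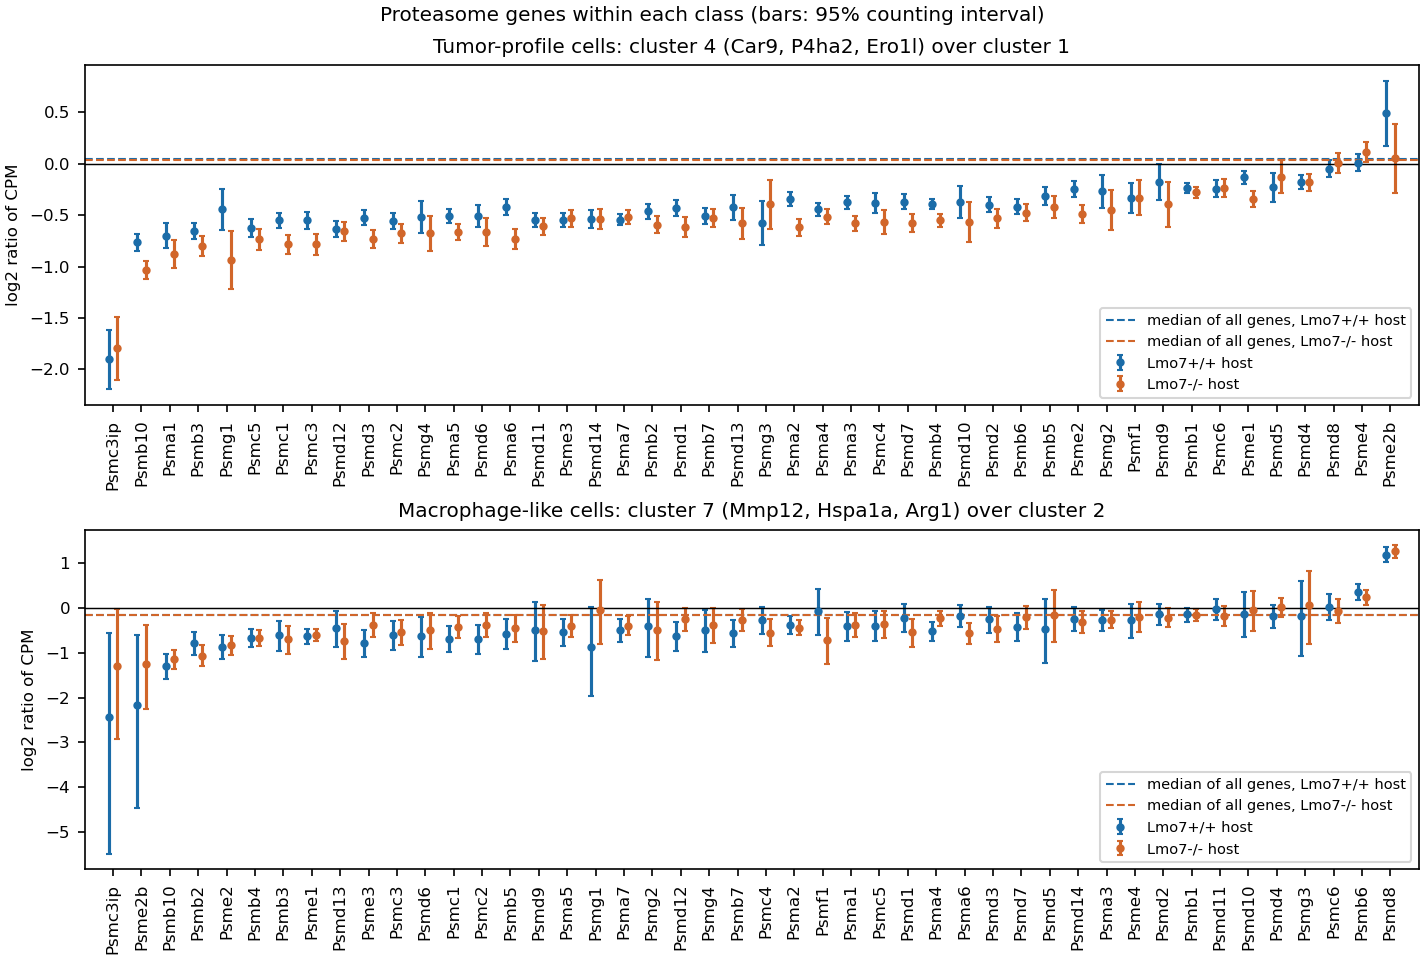
Log2 ratio of CPM (vertical axis) for each of 46 members (horizontal axis) in cluster 4 over cluster 1 of the tumor-profile cells (top) and in cluster 7 over cluster 2 of the macrophage-like cells (bottom), 1 point per library with its 95% counting interval. Nearly all members lie below 0 in the top panel, and Psmd8 stands apart at 1.20 and 1.27 in the bottom panel.

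Between the libraries, members of macrophage-like cells moved little and mostly with the other genes. A gene was counted here when its log2 ratio was at least 0.32 in size. Of 46 members with at least 100 counts 1 was higher in the library labelled Lmo7-/- (all 10069 genes: 6.1%) and 5 were lower (all genes: 18.4%). These 6 became 3 with TMM scaling and 3 with a stricter cell filter (at least 1000 genes and 2000 UMIs, and up to 10% mitochondrial UMIs). The shares of all genes with these settings are not given here. The median of the members was -0.12 on the log2 scale and that of all genes -0.11. The core sum was at 2642 and 2578 CPM, a log2 ratio of -0.04 (-0.05 to -0.02), which with TMM scaling became 0.07, so its direction was not fixed. The cap was at 1991 and 1802 CPM, a log2 ratio of -0.14 (-0.17 to -0.12), near the median of all genes. The lower members were Psmg3 (14.5 and 9.28 CPM, log2 -0.65, -0.93 to -0.36), Psmg2 (26.6 and 20.7 CPM, log2 -0.36), Psmg1 (16.2 and 12.7 CPM, log2 -0.36), Psme3 (141 and 112 CPM, log2 -0.33) and the lid subunit Psmd6 (63.8 and 50.9 CPM, log2 -0.33). The stress list was at 3530 CPM in the Lmo7+/+ library and 2697 CPM in the library labelled Lmo7-/-, and the cell cycle list at 1920 and 1458 CPM. Their part in the result was not tested.

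The higher end in macrophage-like cells held Psme2b (11.8 and 16.2 CPM, log2 0.46, 0.20 to 0.72), Psme2 (203 and 236 CPM, log2 0.22, 0.15 to 0.28) and Psmb10 (224 and 253 CPM, log2 0.18, 0.12 to 0.24). Psme2 and Psmb10 did not reach the limit of 0.32. Psme2b did, but its counts are uncertain, as said above. The sum of Psme1 and Psme2 was at 621 and 693 CPM, a log2 ratio of 0.16 (0.12 to 0.19), or 0.27 relative to the median of all genes.

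In tumor-profile cells 2 of 46 members were past this limit and higher in the library labelled Lmo7-/- (all 12082 genes: 5.35%) and 0 lower (all genes: 7.94%). They were Psmb10 (223 and 289 CPM, log2 0.37, 0.34 to 0.41) and Psme2b (9.15 and 12.3 CPM, log2 0.43, 0.25 to 0.60). Psme2 came next, at 183 and 217 CPM (log2 0.24, 0.20 to 0.28). The lowest ratios were those of Psmg1 (30.5 and 25.8 CPM, log2 -0.24), Psmb5 (154 and 138 CPM, log2 -0.16) and Psmd6 (106 and 96.5 CPM, log2 -0.14). The core sum had a log2 ratio of 0.04 (0.03 to 0.05), the cap sum -0.01 (-0.02 to -0.00), and the median of all genes was -0.04. The 3 members with the highest ratios were Psmb10, Psme2 and Psme2b in macrophage-like and in tumor-profile cells alike. The counts of Psme2b are uncertain, as said above, so it may not be an observation separate from Psme2. Both comparisons rest on the same 2 libraries.

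**Figure D5:**
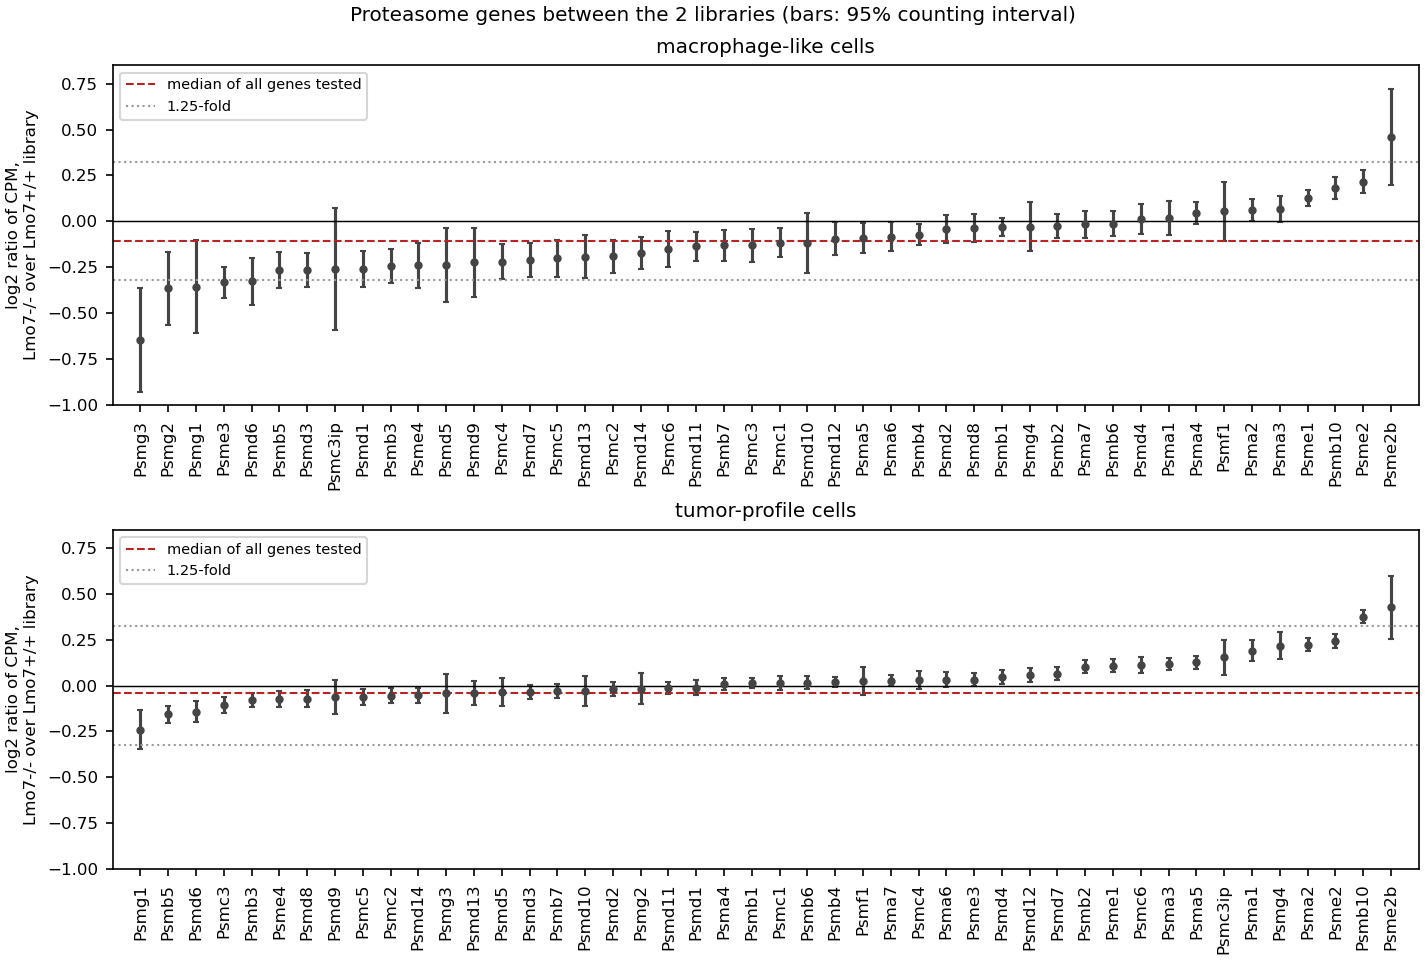
Log2 ratio of CPM in the library labelled Lmo7-/- over the Lmo7+/+ library (vertical axis) for each of 46 members (horizontal axis) in macrophage-like (top) and tumor-profile cells (bottom), with 95% counting intervals, the median of all genes (dashed) and the limit of 0.32 (dotted). Psmb10, Psme2 and Psme2b lie at the high end of both panels.

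Psmb10 and Psme2 were followed through the other classes. Psmb10 was at 275 and 301 CPM in monocyte-like cells (log2 0.13, 0.02 to 0.23), at 193 and 273 CPM in dendritic-like cells (log2 0.50, 0.24 to 0.76) and at 138 and 223 CPM in endothelial-like cells (log2 0.69, 0.23 to 1.17). It was at 158 and 169 CPM in T-like cells (log2 0.10, -0.17 to 0.37), and at 131 and 130 CPM in fibroblast-like cells (log2 -0.01, -0.48 to 0.46), where the intervals included 0. Within the tumor-profile cells its log2 ratio was 0.41 in cluster 1 and 0.51 in cluster 6, 0.14 in cluster 4, 0.22 in cluster 5 and 0.35 (-0.04 to 0.76) in cluster 10. In the smaller macrophage-like clusters it was 0.34 (-0.02 to 0.70) in cluster 7 and 0.51 (0.13 to 0.90) in cluster 15. Psme2 was at 254 and 364 CPM in dendritic-like cells (log2 0.52, 0.29 to 0.74) and at 244 and 292 CPM in monocyte-like cells (log2 0.26, 0.15 to 0.37), but at 239 and 211 CPM in T-like cells (log2 -0.18, -0.41 to 0.04). It was at 90.7 and 150 CPM in fibroblast-like cells (log2 0.72, 0.23 to 1.23) and at 136 and 194 CPM in endothelial-like cells (log2 0.51, 0.03 to 1.00). Psme1 moved less, with log2 ratios of 0.13 in macrophage-like, 0.11 in tumor-profile, 0.03 in monocyte-like (interval -0.04 to 0.11) and 0.20 in dendritic-like cells.

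In the smaller classes few members passed the limit. Monocyte-like cells had 0 of 45 members higher (all genes: 5.84%) and 1 lower (all genes: 10.3%), the core chaperone Psmg2. T-like cells had 0 of 40 higher (all genes: 7.14%) and 3 lower (all genes: 13.2%), Psma1, Psme4 and Psmd11. Dendritic-like cells had 3 of 37 higher (all genes: 8.59%), Psmb10, Psma3 and Psme2, and 1 lower (all genes: 13.3%), Psme3. Fibroblast-like cells had 4 of 28 members higher (all genes: 16.8%) and 4 lower (all genes: 18.2%). Endothelial-like cells had 5 of 26 higher (all genes: 16%) and 1 lower (all genes: 15.2%). Both classes have few cells. In NK-like cells only Psme1 and Psmb1 reached 100 counts, and both were lower (all genes: 11.7% higher and 14.7% lower).

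Of 26 genes that make, regulate or feed the proteasome, 25 were in the files. In tumor-profile against macrophage-like cells 9 were past 1.5-fold higher and 3 lower in both libraries, against the 43.8% and 19.5% of all genes given above. Nfe2l1, the transcription factor that drives proteasome genes when the proteasome is inhibited, was at 189 and 186 CPM in tumor-profile cells and at 67.7 and 63.2 CPM in macrophage-like cells. Nfe2l2, which controls antioxidant genes, went the other way, at 90.8 and 82.7 CPM against 399 and 425 CPM. The other lower genes of the list were Ddi2 (37.4 and 33.4 CPM against 64.3 and 61.1 CPM) and Zfand2a (18.2 and 17.4 CPM against 38.8 and 38.2 CPM). The core assembly factor Pomp was at 357 and 407 CPM against 254 and 269 CPM. Between the libraries 0 of 25 passed the limit of 0.32 in tumor-profile cells (all genes: 5.35% higher and 7.94% lower). In macrophage-like cells 0 were higher (all genes: 6.1%) and 4 lower (all genes: 18.4%), a share of the list near that of all genes. Among the lower ones were the shuttle factor Ubqln4 (log2 -0.68), the ubiquitin ligase Ube3c (log2 -0.40) and the deubiquitinase Uchl5 (log2 -0.35).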

How the data were processed

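Raw UMI counts per gene and cell were deposited by the authors, without normalization. The submitters' processing notes name Cell Ranger 2.1.1 and the build mm10, while the matrix header gives software version 3.0.0. Kept droplets had at least 500 genes and 1000 UMIs, with a mitochondrial share of up to 15%, and doublets stayed in (Scrublet marked 2.90% and 2.60%). Cells were clustered without the proteasome genes on 2000 variable genes, 30 principal components and 20 neighbours with the Louvain algorithm at resolution 0.5. Clusters that were left unnamed, or were closest to T or NK cells, were clustered once more if large enough. Markers of 11 cell types named the clusters, with limits set after the data were seen. Tumor-profile cells were named by the likeness of their chromosome profile to that of their largest cluster. Counts were summed per class and library, and genes needed 100 counts. Levels carry exact Poisson intervals, shares and log2 ratios exact (Clopper-Pearson) ones, at 95%. A count of 0 allows up to 3 counts.

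The genes named were the catalytic subunits, Psmb10, the activators, Psmf1, Psma8, Psmb11, the symbols that are not proteasome parts, and the 3 highest and 3 lowest members of each comparison. Others are named where a count is listed or a cluster was singled out. Members, lists and limits were chosen with earlier results of these data known. The values of 1 gene of the pathway list are not reported here. Ratios were tested on simulated data. Tools were Python 3.11.15, numpy 2.4.6, scipy 1.17.1, pandas 2.3.3, scanpy 1.11.5, igraph 0.11.9, and R 4.3.3 with edgeR 4.0.16 for TMM.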

Additional observations from a re-analysis of the deposited data

Results flagged for a closer look

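Psmd7, a lid subunit of the cap, moved in opposite directions between the libraries. In tumor-profile cells its log2 ratio, library labelled Lmo7-/- over Lmo7+/+, was 0.065 (0.028 to 0.10), and in macrophage-like cells it was -0.21 (-0.30 to -0.12). Both intervals also stayed off 0 after the median of all genes was taken away (0.10 and -0.10). Neither log2 ratio of Psmd7 reached the limit set above for comparisons between the libraries. Opposite directions were also not particular to Psmd7. Of 46 members, 25 were above 0 in tumor-profile cells and 10 in macrophage-like cells. Before the median was taken away, the core sum went opposite ways too (0.042, 0.033 to 0.051, and -0.035, -0.054 to -0.017). Psmd7 was picked out because the 2 classes went opposite ways. The difference between them was not tested, since each genotype has 1 library.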

How the results depend on the processing

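No paired analysis was possible because each genotype has 1 library, and none could be left out in turn. Depth left 40 members with 100 counts between the libraries in T-like cells, 37 in dendritic-like, 28 in fibroblast-like, 26 in endothelial-like and 2 in NK-like cells. The alternatives without cluster 5 and with only the largest cluster of each class were chosen after seeing the data. In log2 ratios, TMM scaling turned the core of macrophage-like cells between the libraries from -0.035 to 0.074. The same ratio was -0.015 with the lenient filter (200 genes, 500 UMIs and 25% mitochondrial UMIs), -0.016 without doublets and -0.011 without the 10 most abundant genes. In tumor-profile cells it went from 0.042 to 0.026 with the lenient filter, 0.076 with TMM and 0.081 in the largest cluster. For PA28alpha/beta, 0.16 became 0.27 with TMM in macrophage-like cells, and 0.17 became 0.20 with TMM and 0.23 in the largest cluster in tumor-profile cells.

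For tumor-profile over macrophage-like cells, the values of the Lmo7+/+ library are followed by those of the library labelled Lmo7-/-. The core (0.48 and 0.56) was 0.46 and 0.50 with the lenient filter, 0.46 and 0.52 without doublets, 0.42 and 0.49 after thinning to 1500 UMIs, 0.46 and 0.49 without the 10 most abundant genes, 0.13 and 0.10 with TMM, 0.56 and 0.67 in the largest clusters, and 0.39 and 0.46 as a mean over cells. PA28alpha/beta (-0.53 and -0.52) was -0.56 and -0.56 with the lenient filter, -0.56 and -0.55 without doublets, -0.88 and -0.98 with TMM, and -0.61 and -0.62 as a mean over cells. In the second library it was also -0.59 after thinning, -0.58 without the 10 most abundant genes and -0.48 in the largest clusters. Members past the log2 limit of 0.32 in macrophage-like cells went from 6 to 3 with the strict filter and 3 with TMM, those in tumor-profile cells from 2 to 1 after thinning, and members past 1.5-fold in tumor-profile over macrophage-like cells from 27 to 10 with TMM. No share of all genes is given for these changed counts.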
